A study of Arabidopsis thaliana with 18 samples.

Results

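Transcript levels in bon123 seedlings under mannitol were compared with those in wild-type (WT) seedlings under mannitol, with 3 libraries of each genotype. These 6 libraries belong to a series of 18. The samples were Arabidopsis thaliana seedlings of the Col-0 ecotype, 9 days old and grown on vertical plates, from which total RNA was taken. The bon123 plants, labelled bon123t, carry mutations in 3 BONZAI genes, BON1, BON2 and BON3, by the series title and the mutant's name. The 4 groups used are bon123 under 300 mM mannitol, WT under 300 mM mannitol, bon123 under mock and WT under mock, all treated on 1/2 MS medium. The sample labels give 12 h of treatment and the series text gives 24 h. Both genotypes also have a group under 100 µM abscisic acid (ABA). The ABA groups entered no contrast, but they entered the estimate of the spread, the filter on low values and the other scalings used below. The table gives TPM, a level per transcript length that is scaled to the same total in each library, for 33082 rows. A gene was tested if it reached at least 1 TPM in at least 3 of the 18 libraries, which 21727 rows did. At the edge of that rule, 484 rows reached 1 TPM in exactly 3 libraries and were kept, and 439 reached it in exactly 2 and were left out.

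BONZAI proteins are copines, proteins that bind membrane phospholipids when calcium rises. In Arabidopsis the loss of BON1 is known for dwarf growth and an immune response that depends on the intracellular receptor SNC1. Osmotic stress makes plants accumulate ABA. PYR/PYL receptors that hold ABA inhibit the clade A PP2C phosphatases, which frees SnRK2 kinases to act on ABF transcription factors. ABFs bind promoter elements with the core ACGTG, and their targets include hydrophilic late embryogenesis abundant (LEA) and dehydrin proteins. A second route runs through DREB factors, which bind the core CCGAC. Mannitol is a sugar alcohol used as an osmoticum.

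The libraries labelled bon123 stood apart from WT in organ markers, with and without mannitol. The 7 leaf markers, which include the Rubisco small subunit RBCS1A and the antenna protein LHCB1.3, summed to 1328 to 1456 TPM in the 3 bon123 mannitol libraries and 23589 to 29833 TPM in the 3 WT mannitol libraries. In mock the same sum was 1221 to 1663 TPM in bon123 and 42472 to 46602 TPM in WT. The 7 root markers summed to 13245 to 17827 TPM in bon123 under mannitol and 1947 to 3242 TPM in WT under mannitol. Most of that sum was PYK10, a beta-glucosidase of roots, at 11179 to 15176 TPM in bon123 and 1604 to 2458 TPM in WT. Of the 7 under mannitol, PYK10 and MLP34 were higher in bon123, by 2.68 ± 0.19 and 2.35 ± 0.24 on the log2 scale, PHO1 was lower, at -1.6 ± 0.23, and 4 were not called. Root hair and endodermis markers overlapped, with sums of 221 to 309 TPM in bon123 under mannitol and 79.2 to 229 TPM in WT under mannitol. Stomatal markers summed to 5.6 to 12.0 TPM in bon123 under mannitol and 36.0 to 53.1 TPM in WT under mannitol, and SPCH and SDD1 were listed at 0 in all 3 bon123 libraries. Seed storage transcripts summed to 4.26 to 8.67 TPM in bon123 under mannitol and 0.10 to 0.48 TPM in WT under mannitol. Floral markers summed to 6.63 to 8.77 TPM in bon123 under mannitol and 5.08 to 5.92 TPM in WT under mannitol, with AP1 listed at 0 in all 3 bon123 mannitol libraries. In RNA from whole seedlings, fewer cells of a type and less RNA per cell cannot be told apart, and the part of organ makeup in the results that follow was not tested.

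**Figure D1:**
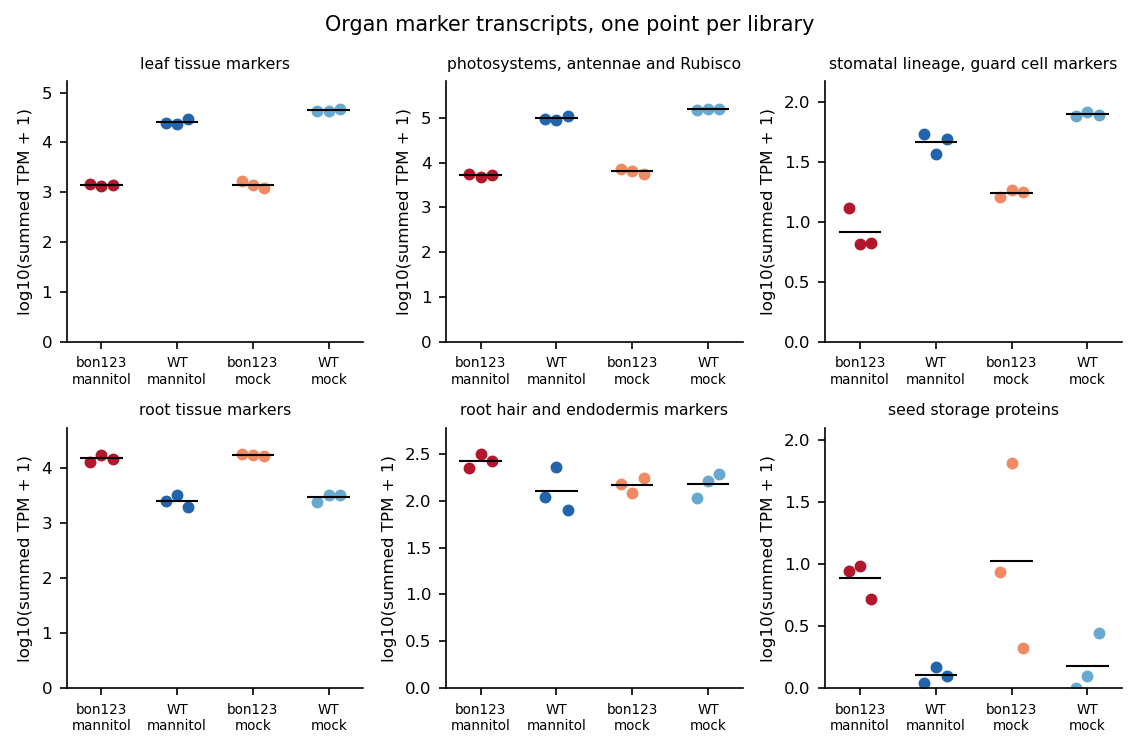
Summed TPM of organ marker genes on a log10 scale, log10(summed TPM + 1), with 1 point per library and a bar at each group's mean. Leaf, photosynthesis and stomatal markers sit lower in bon123 than in WT under mannitol and in mock, and the root tissue sum, most of which is PYK10, sits higher.

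BON1 and BON2 transcripts were lower in bon123 than in WT. BON1 had 0.25, 0.35 and 0.56 TPM in bon123 under mannitol and 13.6, 17.9 and 15.1 TPM in WT under mannitol. BON2 had 4.71, 4.25 and 3.26 TPM in bon123 and 28.3, 30.5 and 28.4 TPM in WT under mannitol. In mock BON2 kept more of its transcript, with 14.6, 13.9 and 16.2 TPM in bon123 and 30.1, 32.6 and 36.3 TPM in WT. For both genes every bon123 library was below every WT library, with and without mannitol. The log2 fold change under mannitol was -3.57 ± 0.18 for BON1 and -2.58 ± 0.23 for BON2 (± standard error, SE, with 3 libraries a group; limma, adjusted p = 4.2e-11 and 6.0e-08). BON3 did not pass the filter, with 0.40, 0.22 and 0.41 TPM in bon123 and 0, 0.05 and 0 TPM in WT under mannitol, so its transcript gives no check of the label. BAP1 and BAP2, C2-domain proteins that act with BON1 to restrain cell death, were higher in bon123. BAP1 had 51, 44.7 and 46.6 TPM in bon123 and 2.59, 3.72 and 1.29 TPM in WT under mannitol, a log2 fold change of 3.84 ± 0.22, and BAP2 changed by 3.82 ± 0.29. BIR1, a receptor-like kinase that interacts with BON1 and restrains immunity, had 35.1, 41.3 and 35.7 TPM in bon123 and 25.2, 28.4 and 29 TPM in WT under mannitol. Its log2 fold change was 0.43 ± 0.18 under mannitol (limma, adjusted p = 0.044) and 1.8 ± 0.18 in mock. In 12 alternative settings the adjusted p of BIR1 under mannitol was 0.0506 to 0.135.

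Most tested genes differed between the genotypes under mannitol. By limma at an adjusted p under 0.05, 5513 genes (25.4% of the genes tested) were higher and 10703 (49.3%) were lower in bon123 than in WT, together 74.6%. The median log2 fold change over all tested genes was -0.36. This lean towards lower values came with gene length: the median was 0.25 over the 3170 genes of 501 to 1000 bases and -1.07 over the 2234 genes of 3001 to 16593 bases. The same bins had medians of 0.08 and 0.17 in mock. Across genes the correlation of the fold change with log2 length was -0.214 under mannitol and -0.00184 in mock, a description in which all points share the same libraries. Ribosomal RNA took 5.98% to 10.1% of TPM in the bon123 mannitol libraries and 1.03% to 1.58% in the WT mannitol libraries. In mock it took 0.75% to 2.22% in bon123 and 0.95% to 7.01% in WT, with the 7.01% in WT library 1. With ribosomal and organelle RNA left out before rescaling, the median over all genes was -0.28. The part of ribosomal RNA in the length trend was not tested.

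**Figure D2:**
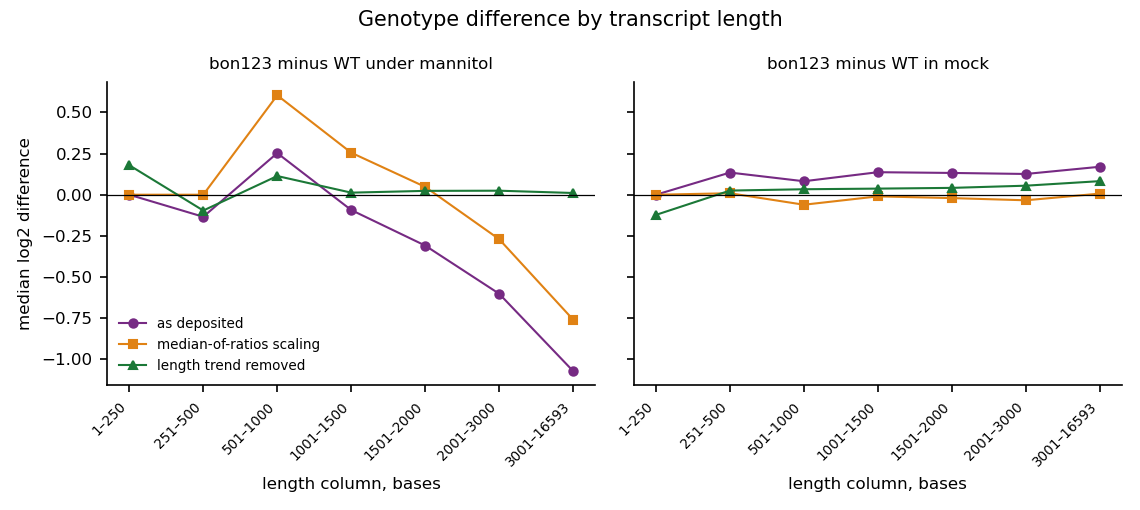
Median log2 fold change, bon123 minus WT, in bins of transcript length in bases, under mannitol and in mock. Under mannitol the median falls to -1.07 in the longest bin, and in mock it stays between 0 and 0.17.

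Other scalings of the same values changed the balance of directions. Of the called genes, 34% were higher in bon123 with the values as deposited, 49% with the median-of-ratios scaling (7957 higher, 8290 lower) and 51.4% without the length trend (8244 higher, 7791 lower). Median-of-ratios scaling moved the median of all genes by 0.33 and removing the length trend moved it by 0.39 on the log2 scale. From here on a gene is said to rise or fall only if limma called it in the same direction under 3 scalings: the values as deposited, the median-of-ratios scaling, and a removal of the length trend. By this rule 5362 genes rose (24.7% of the genes tested) and 6820 fell (31.4%). Of these, 2712 rose and 5489 fell by at least 2-fold, which is 12.5% and 25.3% of the genes tested.

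Many of these differences were there without mannitol. As deposited, 73.8% of the genes tested were called in mock. In mock, 7655 genes rose (35.2%) and 7249 fell (33.4%) in bon123 against WT, by the same rule. Of the genes that rose under mannitol, 3771 also rose in mock, which is 70.3% of the mannitol list and 49.3% of the mock list. Of the genes that fell under mannitol, 4311 also fell in mock, 63.2% of the mannitol list and 59.5% of the mock list. The mannitol and mock contrasts share no library. Whether a difference changed with mannitol was tested by the interaction, the genotype difference under mannitol minus that in mock, which was higher for 3613 genes (16.6%) and lower for 5252 genes (24.2%). As deposited, the interaction was called for 62.3% of the genes tested, and 27.2% of the called interactions were positive, against 52.1% with the median-of-ratios scaling and 48.8% without the length trend.

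Each gene that changed under mannitol was put in a class. A difference called in the same direction in mock was classed as present in mock: 3771 higher genes (17.4%) and 4311 lower genes (19.8%). A difference not called that way in mock, with an interaction called in its direction, was classed as mannitol-dependent: 940 higher genes (4.33%) and 1821 lower genes (8.38%). The rest was undecided, with neither call, for 73 higher genes (0.336%) and 56 lower genes (0.258%), or changed class with the scaling. Of the mannitol-dependent genes, 432 of the 940 higher ones and 794 of the 1821 lower ones were called in the opposite direction in mock. Within the class present in mock, the difference was larger under mannitol for 310 and smaller for 648 of the 3771 higher genes. For the 4311 lower genes it was larger for 745 and smaller for 869. Across genes the genotype differences under mannitol and in mock had a Pearson correlation of 0.728 and a Spearman correlation of 0.62.

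**Figure D3:**
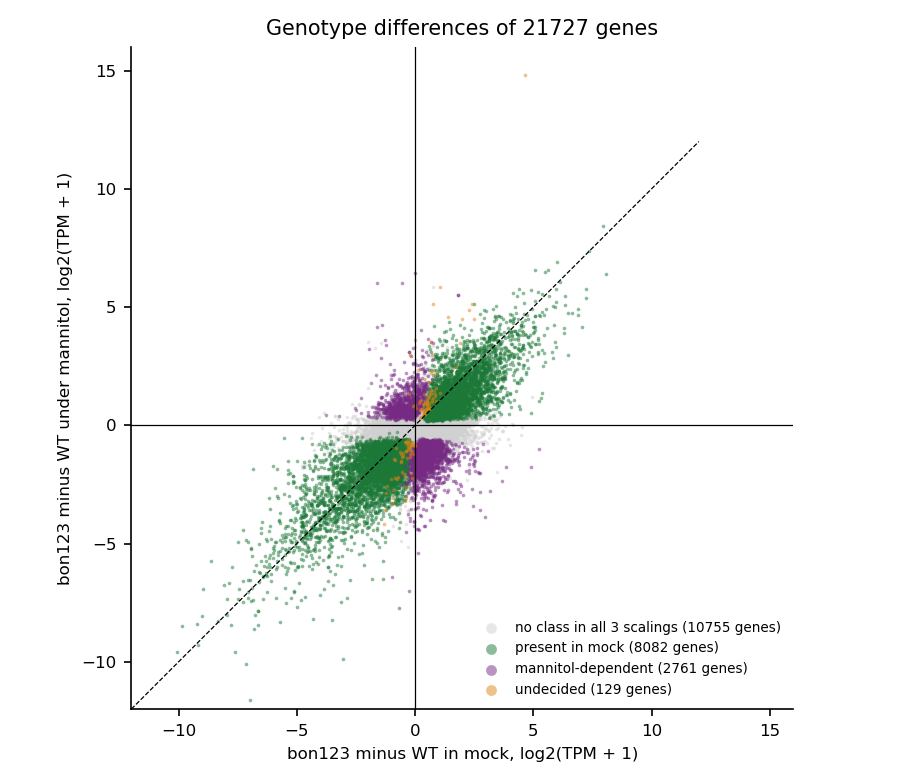
Log2 fold change of bon123 against WT under mannitol (vertical axis) and in mock (horizontal axis), 1 point per tested gene, coloured by class. Genes present in mock have the same sign on both axes by the rule of their class, around the dashed line of equal change. LEA7, a mannitol-dependent gene, is at -7.73 under mannitol and -0.68 in mock.

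Large differences among the stress genes were in dehydration effectors, the proteins that protect membranes and enzymes in drying cells. LEA7, a late embryogenesis abundant protein, had 16, 6.12 and 5.89 TPM in bon123 and 1579, 2474 and 2019.7 TPM in WT under mannitol. RD29B, a hydrophilic protein used as a reporter of ABA action, had 9.81, 4.5 and 4.96 TPM in bon123 and 460.4, 786 and 623 TPM in WT under mannitol. RAB18, a dehydrin, had 26.5, 15.4 and 18.4 TPM in bon123 and 2982, 4380 and 3782 TPM in WT under mannitol. In all 3 genes the highest bon123 library was far below the lowest WT library. In mock, LEA7 had 6.17, 6.39 and 6.82 TPM in bon123 and 2.1, 38.1 and 13.1 TPM in WT, and the groups overlapped. The log2 fold change of LEA7 was -7.73 ± 0.60 under mannitol (limma, adjusted p = 8.8e-09) and -0.68 ± 0.60 in mock (adjusted p = 0.32), with an interaction of -7.05 ± 0.84 (adjusted p = 4.2e-06). RD29B changed by -6.43 ± 0.62 under mannitol and -0.96 ± 0.62 in mock, an interaction of -5.46 ± 0.87. RAB18 changed by -7.48 ± 0.22 under mannitol and was also lower in mock, at -3.14 ± 0.22.

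The promoter windows of these genes are printed to show which ABA and DREB elements stand before genes that fell together. Each is the 250 bases before the transcript start that RefSeq gives on TAIR10.1, 5′ to 3′ on the gene's own strand, with matches in capitals on either strand: the cores ACGTG and CCGAC named above, and TTGAC, the core of the W-box that WRKY factors bind. LTP4, a lipid transfer protein that fell more than any of the 3, is set beside them.
LEA7, chr1:19619474-19619723, plus strand: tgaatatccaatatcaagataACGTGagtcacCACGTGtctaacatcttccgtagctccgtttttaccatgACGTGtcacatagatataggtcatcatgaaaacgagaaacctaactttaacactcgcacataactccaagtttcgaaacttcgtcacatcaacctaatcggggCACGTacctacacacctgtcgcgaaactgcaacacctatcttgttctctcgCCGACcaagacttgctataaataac
RD29B, chr5:21236771-21237020, plus strand: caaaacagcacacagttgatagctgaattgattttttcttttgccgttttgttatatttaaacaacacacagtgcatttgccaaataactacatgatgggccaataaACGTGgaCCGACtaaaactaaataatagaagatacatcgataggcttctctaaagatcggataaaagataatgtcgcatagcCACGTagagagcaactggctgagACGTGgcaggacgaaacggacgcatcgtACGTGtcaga
RAB18, chr5:26519448-26519697, minus strand: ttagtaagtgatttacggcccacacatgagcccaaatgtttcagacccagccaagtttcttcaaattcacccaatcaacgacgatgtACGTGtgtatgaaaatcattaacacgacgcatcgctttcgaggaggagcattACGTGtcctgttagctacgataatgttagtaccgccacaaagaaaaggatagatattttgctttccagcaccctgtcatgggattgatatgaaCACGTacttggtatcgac
LTP4, chr5:23925958-23926207, minus strand: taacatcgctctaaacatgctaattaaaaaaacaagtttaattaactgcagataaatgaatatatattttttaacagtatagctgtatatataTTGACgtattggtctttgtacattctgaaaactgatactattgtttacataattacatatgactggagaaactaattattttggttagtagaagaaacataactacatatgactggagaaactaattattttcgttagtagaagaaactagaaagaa
ACGTG matched 5 times in the LEA7 window, where the palindrome CACGTG counts once for each strand, 4 times in RD29B and 3 times in RAB18. It did not match in LTP4. CCGAC matched once in LEA7 and once in RD29B. At least 1 ACGTG was found in 24% of the 21386 promoters of tested genes, and at least 2 in 9.82%. For the 1801 promoters of mannitol-dependent lower genes the shares were 27.8% and 14%. They were 23.9% and 8.39% for the 918 promoters of mannitol-dependent higher genes. For the 3715 promoters of higher genes present in mock they were 27.2% and 9.83%. In the 4262 promoters of lower genes present in mock, the class of LTP4, they were 23.2% and 10.5%. RAB18, with its 3 matches, was also lower in both treatments. CCGAC was in 12.8% of all promoters, 14.5% of those 1801, 11% of those 918, 11% of those 3715 and 12.1% of those 4262. TTGAC, found once in LTP4, was in 45.3% of all promoters, in 51.9% of those 3715 promoters and in 41.2% of the 4262 promoters of lower genes present in mock. These shares are descriptions of letters in a window and say nothing of binding.

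**Figure D4:**
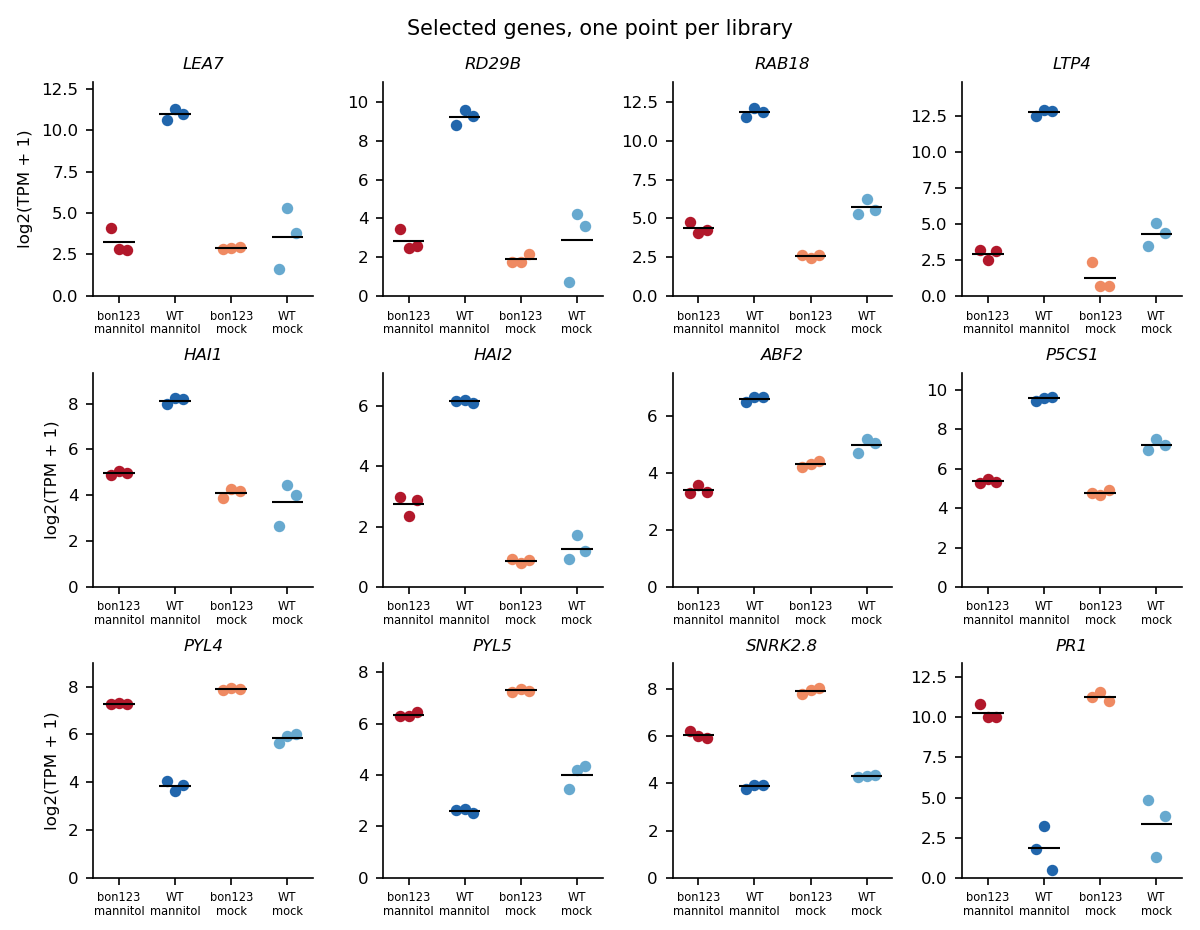
log2(TPM + 1) of single genes in the bon123 and WT libraries under mannitol and in mock, 1 point per library with a bar at the group mean. LEA7 and RD29B separate the genotypes under mannitol and overlap in mock.

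Of the 25 dehydration effectors tested, 15 fell and none rose, against 31.4% and 24.7% of all genes. These shares stand beside the list and group counts under mannitol that follow. In mock 35.2% of all genes rose and 33.4% fell, and the interaction was higher for 16.6% and lower for 24.2%. Their median log2 fold change was -1.66 as deposited and -1.25 with median-of-ratios scaling, beside -0.36 and -0.03 over all genes. RD22, a BURP-domain protein of dehydration, had 4.82, 2.49 and 2.04 TPM in bon123 and 3630.5, 5283 and 4174 TPM in WT under mannitol, with a log2 fold change of -10.09 ± 0.35 under mannitol and -7.17 ± 0.35 in mock. The neighbours LTP4 and LTP3 are similar in sequence and may share reads. LTP4 had 7.99, 4.67 and 7.66 TPM in bon123 and 5999.8, 7907 and 7496 TPM in WT, and changed by -9.86 ± 0.45 under mannitol and -3.07 ± 0.45 in mock. LTP3 changed by -8.23 ± 0.40. COR15A, which protects chloroplast membranes in the cold, had 4.38, 1.02 and 2.61 TPM in bon123 and 458, 460.5 and 386 TPM in WT, a change of -7.0 ± 0.31 under mannitol and -5.1 ± 0.31 in mock. RD29A, which responds to ABA and to DREB factors, was lower by a like amount in both treatments, at -4.38 ± 0.24 under mannitol and -4.72 ± 0.24 in mock, and its interaction of 0.33 ± 0.34 was not called (limma, adjusted p = 0.4).

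Not every dehydration gene followed. KIN1, KIN2, ERD14, XERO2, LEA14, EM6 and RD20 were called lower as deposited but not under all 3 scalings. The dehydrin ERD14 had 919, 882 and 919 TPM in bon123 and 1188, 1621 and 1274 TPM in WT under mannitol, and RD20, a caleosin, had 358, 235 and 205 TPM in bon123 and 418, 474 and 398 TPM in WT. LEA18 (-0.48) and HVA22D (-0.33) were not called in any direction as deposited. The list also held 1 member called higher in bon123 as deposited, but not under all 3 scalings. Several of these genes were higher in bon123 without mannitol, among them EM6 (2.33 ± 0.19 in mock), RD20 (2.18 ± 0.17) and XERO2 (1.62 ± 0.20). The class mannitol-dependent held 7 of the 25 under all 3 scalings, among them LEA7, RD29B, COR47, LEA4-5, TSPO and HVA22B.

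The clade A PP2C phosphatases, which hold SnRK2 kinases inactive and are themselves induced by ABA, were lower together. All 9 were called lower as deposited and 8 of 9 fell under all 3 scalings. HAI1 had 28.3, 32.4 and 30.1 TPM in bon123 and 249, 299.7 and 292 TPM in WT under mannitol, and HAB1 had 19.4, 16.7 and 17.4 TPM in bon123 and 145, 166 and 154 TPM in WT. The groups lay far apart in both genes. The largest changes were in HAI2 (-3.42 ± 0.20), HAI1 (-3.17 ± 0.31), AHG1 (-3.06 ± 0.20) and HAB1 (-3.05 ± 0.26). ABI1 was the exception to the scalings, with 89.7, 94.3 and 90.4 TPM in bon123 and 152, 154 and 150.3 TPM in WT and a log2 fold change of -0.73 ± 0.15 as deposited. The list had a median of -2.88 under mannitol and -0.18 in mock. HAI1 changed by 0.39 ± 0.31 in mock, where it was not called, and its interaction was -3.56 ± 0.44 (limma, adjusted p = 5.2e-06).

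The ABA receptors went the other way. Of 10 tested, 8 rose and none fell, and PYL11, PYL12 and PYL13 did not pass the filter. PYL4 had 154, 158 and 154 TPM in bon123 and 15.5, 11.4 and 13.9 TPM in WT under mannitol. PYL5 had 78.2, 77 and 86 TPM in bon123 and 5.17, 5.44 and 4.7 TPM in WT, and PYL6 had 19, 15.6 and 16.5 TPM in bon123 and 0.93, 0.58 and 0.55 TPM in WT. In each the bon123 libraries were all above the WT libraries, with log2 fold changes of 3.43 ± 0.15, 3.74 ± 0.17 and 3.42 ± 0.12. These rises were present in mock, at 2.02, 3.29 and 3.52. PYL8 rose by 1.25 ± 0.11. PYL7 had a log2 fold change of -0.60 ± 0.14 that was not called in all scalings, and PYL2 was not called (-0.31).

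SnRK2 kinases were split. Of 10 tested, 3 rose and 5 fell. SNRK2.9 (3.0 ± 0.32) and SNRK2.8 (2.18 ± 0.12) rose, and in mock they were at 4.57 ± 0.32 and 3.6 ± 0.12. OST1, the SnRK2 that drives stomatal closure by ABA, had 16.7, 16.4 and 15.2 TPM in bon123 and 50.7, 55.2 and 49.8 TPM in WT under mannitol. It changed by -1.63 ± 0.14 under mannitol and 0.63 ± 0.14 in mock, an interaction of -2.26 ± 0.20 (limma, adjusted p = 2.4e-07). SNRK2.1 had 32.5, 33.7 and 33.1 TPM in bon123 and 137, 136 and 131 TPM in WT, a change of -1.99 ± 0.08. SNRK2.2, 1 of the main ABA-activated kinases, changed by 0.46 ± 0.08 under mannitol and 1.69 ± 0.08 in mock. The list's median was -0.68 under mannitol and 1.21 in mock as deposited, and -0.28 under mannitol with median of ratios.

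Among 19 ABA-related transcription factors, 4 rose and 10 fell. ABF2 had 8.88, 11.1 and 8.96 TPM in bon123 and 88.9, 99.2 and 101 TPM in WT under mannitol, a change of -3.2 ± 0.16. ABF3 changed by -2.51 ± 0.17 and ABF4 by -1.46 ± 0.17, while ABF1 rose by 0.43 ± 0.18. MYB96, an activator of cuticular wax genes under drought, had 0.96, 0.96 and 0.36 TPM in bon123 and 53.2, 78.9 and 68.3 TPM in WT, and changed by -5.27 ± 0.18 under mannitol and -2.71 ± 0.18 in mock. HB12, a homeodomain factor induced by water deficit, changed by -3.03 ± 0.16 under mannitol and 0.46 ± 0.16 in mock. The NAC factor NAC3 had 92.8, 96.7 and 96.3 TPM in bon123 and 1.75, 3.2 and 1.08 TPM in WT under mannitol, the largest rise of the list at 5.06 ± 0.20, and rose by 5.85 ± 0.20 in mock. The list's median was -1.42 under mannitol and 0.89 in mock, and 5 of its falls were mannitol-dependent.

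Genes of ABA synthesis and breakdown included 4 that rose and 6 that fell among 12 tested. ABA1, zeaxanthin epoxidase, had 35.2, 33.8 and 29.2 TPM in bon123 and 485, 542 and 520 TPM in WT under mannitol, a change of -3.94 ± 0.21. NCED3, whose cleavage of epoxycarotenoids limits stress-induced ABA synthesis, had 15.4, 21.2 and 15.9 TPM in bon123 and 64.6, 83.4 and 78.8 TPM in WT, a change of -2.05 ± 0.22. AAO3, the aldehyde oxidase of the last step, changed by -2.91 ± 0.23 under mannitol and 0.29 ± 0.23 in mock. Of the ABA 8′-hydroxylases, CYP707A2 fell, at -3.63 ± 0.18, and CYP707A1 (1.14 ± 0.26) and CYP707A4 (1.81 ± 0.16) rose. ABA content was not measured in these files.

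Osmolyte genes were mixed, with 3 that rose and 5 that fell among 15 tested, near the shares of all genes. P5CS1, which catalyses the committed step of proline synthesis, had 37.8, 43.2 and 39.5 TPM in bon123 and 703, 776 and 800 TPM in WT under mannitol, a change of -4.21 ± 0.20 against -2.44 ± 0.20 in mock. GolS2, a galactinol synthase of raffinose synthesis, had 2.03, 3.07 and 2.25 TPM in bon123 and 70, 127 and 102 TPM in WT, a change of -4.84 ± 0.28. SUS3, a sucrose synthase, turned with treatment: it was -2.0 ± 0.21 under mannitol and 2.71 ± 0.21 in mock, an interaction of -4.71 ± 0.29 (limma, adjusted p = 7.5e-09). The proline dehydrogenase ERD5 had 125, 97.2 and 81.8 TPM in bon123 and 113, 105 and 67.3 TPM in WT under mannitol and was not called (0.11), while in mock it was higher by 3.25 ± 0.26.

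DREB/CBF and early dehydration genes gave 5 rises and 2 falls among 11 tested, and CBF1, CBF4 and DDF1 did not pass the filter. ZAT12, a zinc finger factor of oxidative stress, had 127, 135 and 129.5 TPM in bon123 and 14.6, 14.4 and 11.5 TPM in WT under mannitol, a change of 3.18 ± 0.11. DREB26 rose by 2.39 ± 0.23 and DREB2A by 1.38 ± 0.25. ERD1, a chloroplast Clp protease subunit, had 38.3, 40.4 and 30.8 TPM in bon123 and 289, 328 and 282 TPM in WT, and changed by -3.01 ± 0.26 under mannitol and 0.75 ± 0.26 in mock.

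**Figure D5:**
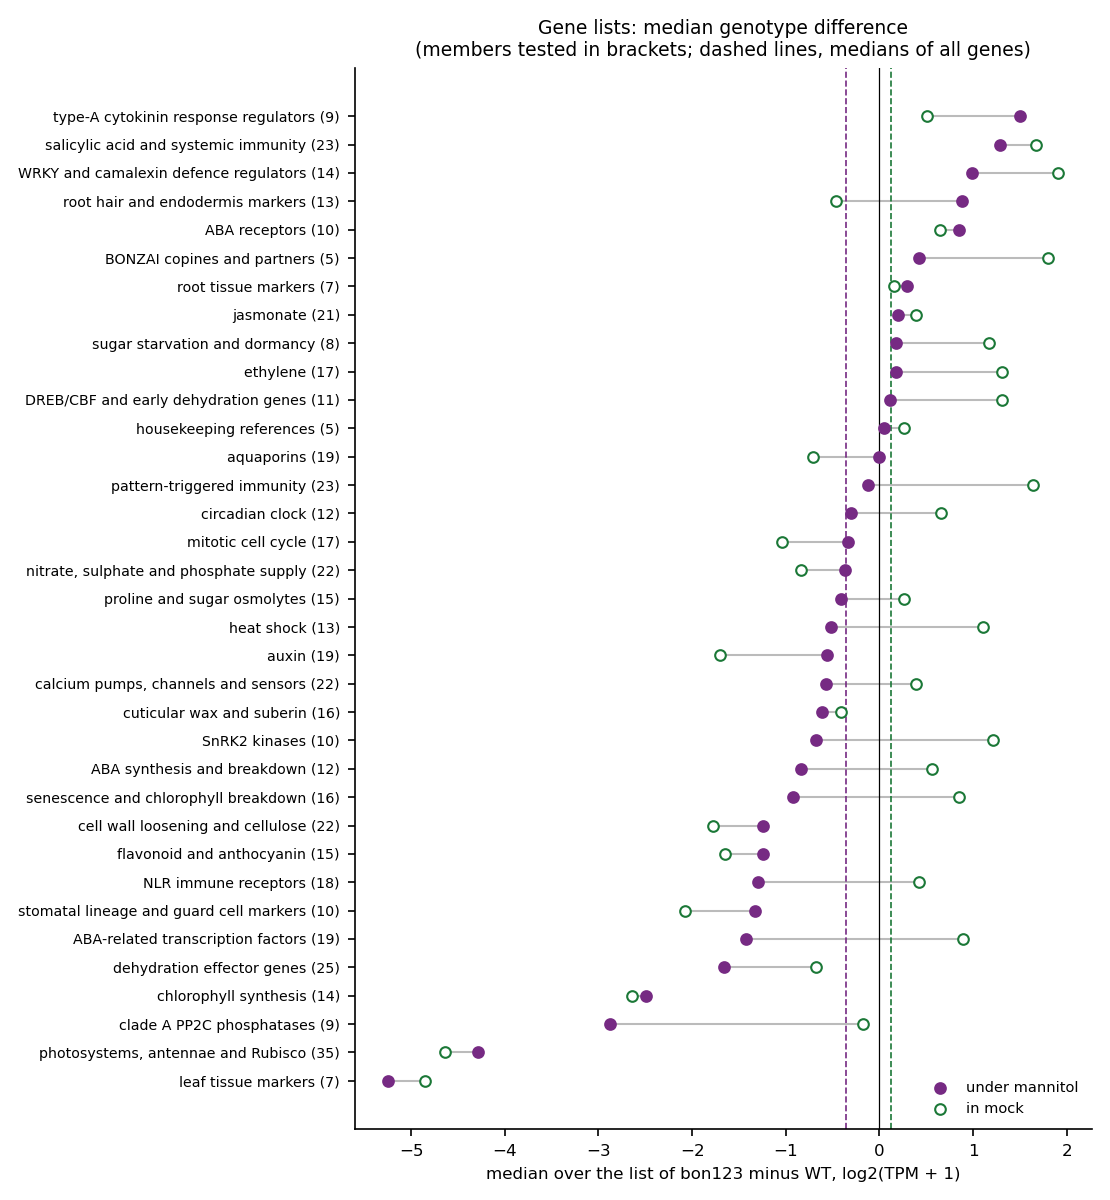
Median log2 fold change of each gene list, bon123 minus WT, as deposited, under mannitol and in mock, with the median over all tested genes as a line. The PP2C list sits at -2.88 under mannitol and -0.18 in mock, and the photosynthesis list at -4.29 under mannitol and -4.64 in mock.

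Salicylic acid and systemic immunity genes were higher in bon123 under mannitol as they were in mock. Of 23 tested, 15 rose and 3 fell under mannitol, and the list's median was 1.29 under mannitol and 1.67 in mock. PR1, the standard marker of salicylic acid signalling, had 1840.2, 1025 and 1021 TPM in bon123 and 2.46, 8.42 and 0.41 TPM in WT under mannitol. All 3 bon123 libraries were far above all 3 WT libraries. Its log2 fold change was 8.44 ± 0.88 under mannitol (limma, adjusted p = 3.1e-07) and 7.95 ± 0.88 in mock, and the interaction of 0.50 was not called (adjusted p = 0.75). WRKY38 rose by 3.29 ± 0.18 and DMR6, a salicylic acid hydroxylase, by 2.73 ± 0.17. PBS3, which conjugates isochorismate with glutamate, had 24, 24.4 and 22 TPM in bon123 and 3.35, 3.09 and 2.8 TPM in WT. The synthase ICS1 (-0.01), the lipase-like EDS1 (-0.14) and the receptor NPR1 (-0.07) were not called, and EDS1 had 10.1, 11.1 and 10.2 TPM in bon123 and 11.4, 10.9 and 12.7 TPM in WT.

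Members of the same list fell too. PR5, a thaumatin-like protein and a usual companion of PR1, had 11.7, 10.9 and 8.72 TPM in bon123 and 146, 118 and 125 TPM in WT under mannitol, a change of -3.51 ± 0.30 against -0.63 ± 0.30 in mock. ACD6, an ankyrin protein of leaf immunity, had 0, 0.03 and 0.04 TPM in bon123 and 11.7, 16.7 and 22.7 TPM in WT, a change of -4.09 ± 0.37. The glucanase PR2 had 5.93, 5.47 and 5.8 TPM in bon123 and 14.9, 11 and 17.5 TPM in WT and was not called under mannitol (-1.18 ± 0.72, limma, adjusted p = 0.15).

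Intracellular NLR immune receptors ran against that direction. Of 18 tested, 1 rose and 9 fell, with a median of -1.29 as deposited and -0.26 with the length trend removed. In mock the median was 0.42. SNC1 had 14.6, 13.7 and 10.6 TPM in bon123 and 52.7, 49.7 and 55.9 TPM in WT under mannitol, and all bon123 libraries were below all WT libraries. Its change was -1.95 ± 0.21 under mannitol (limma, adjusted p = 4.9e-07) and 0.00 ± 0.21 in mock (adjusted p = 1). RPP8 (-3.43 ± 0.18), RPP4 (-3.06 ± 0.12) and RPP1 (-2.68 ± 0.23) fell most, and the helper receptor ADR1 rose by 0.75 ± 0.16. RPP4 and RPP5 sit in a cluster with SNC1, and near-identical copies in such clusters share reads, so single values are uncertain. Transcripts of these receptors are long. With median of ratios the list's median under mannitol was -0.95, and the part of length in these falls was not tested.

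Pattern-triggered immunity genes gave 9 rises and no fall among 23 tested. WRKY29 had 62.1, 48.7 and 57.8 TPM in bon123 and 4.44, 6.86 and 2.39 TPM in WT under mannitol, a change of 3.44 ± 0.25. The kinase BIK1, which acts below several surface receptors, had 69.7, 73.5 and 68.5 TPM in bon123 and 14.8, 15.1 and 14.5 TPM in WT, a change of 2.18 ± 0.11. NHL10 rose by 1.93 ± 0.31. The list's median under mannitol turned with the scaling: it was -0.13 as deposited, 0.27 with median of ratios and 0.72 without the length trend. In mock it was 1.64 as deposited, and 21 of the 23 rose. The interaction was negative for 12 of the 23 in all 3 scalings. CYP71A13, an enzyme of camalexin synthesis, had an interaction of -4.15 ± 0.42: it was -0.75 ± 0.30 under mannitol, not called in all scalings, and 3.4 ± 0.30 in mock. The flagellin receptor FLS2 had 0.06, 0.13 and 0.11 TPM in bon123 and 1.88, 0.91 and 1.92 TPM in WT, a change of -1.2 ± 0.14 as deposited that was not called in all scalings.

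WRKY and camalexin regulators gave 10 rises and 1 fall among 14 tested. WRKY51 had 23, 17.7 and 21.2 TPM in bon123 and 0.77, 0.95 and 0.52 TPM in WT under mannitol, a change of 3.63 ± 0.20, and WRKY75 changed by 3.31 ± 0.26. WRKY60 fell, at -2.0 ± 0.13. CYP79B3, which makes indole-3-acetaldoxime from tryptophan, had 166, 248 and 192 TPM in bon123 and 59.9, 46.2 and 61.7 TPM in WT and was mannitol-dependent, at 1.83 ± 0.16 against -0.32 ± 0.16 in mock.

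Calcium pumps, channels and sensors included 5 that rose and 7 that fell among 22 tested, near the shares of all genes. CNGC4, a cyclic nucleotide-gated channel, had 0.63, 0.77 and 0.64 TPM in bon123 and 36, 30.9 and 31.6 TPM in WT under mannitol, a change of -4.33 ± 0.11. Its partner CNGC2 changed by -2.11 ± 0.14. OSCA1, a calcium channel that opens under hyperosmotic stress, had 10.8, 12.5 and 11.4 TPM in bon123 and 51.4, 51 and 56.4 TPM in WT, and was lower by a like amount in both treatments, at -2.1 ± 0.16 under mannitol and -2.11 ± 0.16 in mock. The pumps ACA8 (-0.63) and ACA10 (-1.03), known partners of BON1, were called lower as deposited but not in all scalings. TCH2, a calmodulin-like protein of touch responses, rose by 1.4 ± 0.17 under mannitol and was at 0.09 ± 0.17 in mock.

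Of 21 jasmonate genes tested, 10 rose and 6 fell. The allene oxide cyclases AOC1 and AOC2, copies that may share reads, fell, at -6.1 ± 0.11 and -3.92 ± 0.19, and AOS fell at -2.17 ± 0.14. AOC1 had 0.38, 0.66 and 0.64 TPM in bon123 and 113, 103 and 100.4 TPM in WT under mannitol. JAZ10, a repressor induced by jasmonate, rose by 2.14 ± 0.25, and JAZ9 fell, at -3.12 ± 0.08. VSP2, a vegetative storage protein, had 159, 186 and 185 TPM in bon123 and 53.2, 52.8 and 43.4 TPM in WT under mannitol, and 21.7, 16.6 and 16.6 TPM in bon123 and 78, 69.3 and 57.7 TPM in WT in mock. The genotypes stood in opposite order in the treatments, with changes of 1.81 ± 0.25 under mannitol and -1.84 ± 0.25 in mock and an interaction of 3.65 ± 0.36 (limma, adjusted p = 6.0e-07).

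Ethylene genes gave 8 rises and 1 fall among 17 tested, with a median as deposited of 0.17 under mannitol and 1.31 in mock. With median of ratios the median under mannitol was 0.55, and without the length trend it was 0.87. The receptor ETR2 rose by 1.72 ± 0.16 and the response factor ERF1 by 1.43 ± 0.19. ACS6 was the fall, at -0.92 ± 0.14. ACS2 had 12.5, 16.6 and 13.3 TPM in bon123 and 10.2, 15.3 and 12.1 TPM in WT and was not called under mannitol (0.17), but was higher in mock by 2.68 ± 0.19.

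Photosynthesis genes held many of the largest falls, and these were present in mock. All 35 tested genes of the photosystems, antennae and Rubisco fell under mannitol, with a median of -4.29 under mannitol and -4.64 in mock. The list summed to 4865 to 5459 TPM in the bon123 mannitol libraries and 87323 to 110984 TPM in the WT mannitol libraries. LHCB1.3 had 714, 644 and 715 TPM in bon123 and 10124, 9676 and 11876 TPM in WT under mannitol, a change of -3.93 ± 0.13. RCA, Rubisco activase, had 126, 134 and 107 TPM in bon123 and 4160.1, 4541 and 5363 TPM in WT, a change of -5.25 ± 0.13. The small subunits RBCS2B (-9.59 ± 0.75), RBCS3B (-9.29 ± 0.59) and RBCS1B (-8.47 ± 0.74) fell further, but RBCS and LHCB1 genes are near-copies that share reads, so the split between them is uncertain. In the bon123 mock library 1 RBCS2B was at 32.6, RBCS3B at 70 and RBCS1B at 30 TPM, above the other two bon123 mock libraries. Of 14 chlorophyll synthesis genes, 13 fell. PORC, a protochlorophyllide oxidoreductase, changed by -5.28 ± 0.11, and GUN5, the H subunit of magnesium chelatase, had 21.8, 19.9 and 15.4 TPM in bon123 and 417, 411 and 490.2 TPM in WT, a change of -4.46 ± 0.19.

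Senescence and chlorophyll breakdown genes gave 5 rises and 9 falls among 16 tested, with a median of -0.92 under mannitol and 0.85 in mock. PAO, the oxygenase that opens the chlorophyll ring, had 30, 23.8 and 21.9 TPM in bon123 and 366, 385 and 365 TPM in WT under mannitol. In mock it had 54.5, 55.1 and 51 TPM in bon123 and 37.8, 46.6 and 50.8 TPM in WT. Its changes were -3.84 ± 0.18 under mannitol and 0.25 ± 0.18 in mock, an interaction of -4.09 ± 0.25 (limma, adjusted p = 5.9e-09). PPH and SGR2, also of chlorophyll breakdown, were mannitol-dependent falls, at -2.19 ± 0.13 and -1.0 ± 0.16. SAG29, a sugar transporter of senescence, fell at -4.88 ± 0.12. DIN2, a beta-glucosidase induced in the dark, and SAG20 rose, by 3.09 ± 0.47 and 2.33 ± 0.11. SAG113 in this list is the same locus as HAI1.

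Cell wall genes were low in bon123 in both treatments, and more so in mock for part of them. Of 22 tested, 3 rose and 11 fell under mannitol, 19 fell in mock, and the interaction was positive for 10 and negative for 0. The expansin EXPA5 had 0.04, 0 and 0 TPM in bon123 and 14, 15.3 and 16.6 TPM in WT under mannitol, a change of -4.0 ± 0.11 against -5.24 ± 0.11 in mock. EXPA8 had 7.0, 10.6 and 11.4 TPM in bon123 and 7.41, 5.28 and 7.63 TPM in WT under mannitol, and 3.04, 1.8 and 2.36 TPM in bon123 and 43.2, 48.1 and 44.6 TPM in WT in mock. EXPA8 changed by 0.44 ± 0.17 under mannitol and -3.78 ± 0.17 in mock, an interaction of 4.23 ± 0.24 (limma, adjusted p = 3.9e-09). XTH6, a xyloglucan endotransglucosylase, changed by -1.7 ± 0.22 under mannitol and -6.02 ± 0.22 in mock. XTH6 had 0.47, 0.13 and 0.14 TPM in bon123 and 2.36, 2.76 and 4.14 TPM in WT under mannitol, and 2.14, 0.85 and 0.70 TPM in bon123 and 122.6, 132 and 162 TPM in WT in mock, so the WT groups of the treatments lie further apart than the bon123 groups.

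Mitotic genes were near WT levels under mannitol. Of 17 tested, 1 rose and 1 fell under mannitol, with a median of -0.33 as deposited and 0.01 with median of ratios. In mock 16 of them fell, with a median of -1.04, and the interaction was positive for 11. CDC20.1, an activator of the anaphase-promoting complex, fell at -1.33 ± 0.20, and the kinase CDKA;1 rose by 0.47 ± 0.14. PCNA1, the replication clamp, had 6.23, 7.62 and 7.01 TPM in bon123 and 9.1, 6.66 and 5.73 TPM in WT under mannitol and was not called (-0.02), against -2.38 ± 0.16 in mock.

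Among 19 auxin genes, 3 rose and 10 fell under mannitol. The transporters PIN7 (-2.81 ± 0.15) and PIN3 (-2.5 ± 0.12) and the early response gene IAA1 (-2.72 ± 0.21) fell, and SAUR9 rose by 2.81 ± 0.22. PIN3 had 7.81, 6.67 and 7.55 TPM in bon123 and 50.8, 43.7 and 44.4 TPM in WT under mannitol. AUX1, the influx carrier, rose by 1.06 ± 0.16 under mannitol and fell in mock, at -0.57 ± 0.16. Of 9 type-A cytokinin response regulators, 6 rose and 1 fell. ARR5 had 38.5, 38 and 38.7 TPM in bon123 and 4.74, 6.15 and 4.54 TPM in WT, a change of 2.69 ± 0.14, ARR6 changed by 2.54 ± 0.16 and ARR4 by 2.33 ± 0.15.

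Genes of cuticular wax and of suberin gave 7 rises and 7 falls among 16 tested. CER genes of shoot wax were among the falls. CER6 had 5.12, 3.06 and 3.34 TPM in bon123 and 628, 908 and 769 TPM in WT under mannitol, a change of -7.32 ± 0.19, CER1 changed by -6.28 ± 0.14 and CER2 by -5.98 ± 0.16. The wax ester synthase WSD1 was listed at 0 in all 3 bon123 mannitol libraries and had 26.1, 41.7 and 31.1 TPM in WT. The elongases KCS2 and KCS20, which serve wax and suberin, fell at -2.07 ± 0.15 and -1.29 ± 0.17. The 7 rises were suberin genes, active in root endodermis and periderm. CYP86A1 had 225, 399 and 294 TPM in bon123 and 22.9, 30 and 19.8 TPM in WT, a change of 3.59 ± 0.26, and GPAT5 changed by 2.91 ± 0.30. CYP86B1 and ABCG6 were mannitol-dependent rises, at 2.23 ± 0.28 and 1.98 ± 0.35. The leaf markers, all 7 of which fell, and the root markers PYK10 and MLP34 moved with these genes, PHO1 moved the other way, and the part of organ makeup was not tested.

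Of 15 flavonoid and anthocyanin genes, 12 fell and none rose. The anthocyanin activators PAP1 and PAP2 had 0, 0.36 and 0.05 and 0, 0.14 and 0 TPM in bon123 under mannitol and 76.8, 47.4 and 44.3 and 54.2, 23.9 and 25.4 TPM in WT under mannitol, with changes of -5.62 ± 0.20 and -4.99 ± 0.25. LDOX and UGT75C1, late enzymes of the pathway, fell at -3.67 ± 0.30 and -3.43 ± 0.26. TT4, chalcone synthase, the first enzyme, had 124, 154 and 127 TPM in bon123 and 198, 129 and 102 TPM in WT and was not called under mannitol (-0.04).

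Aquaporins, the water channels of plasma membrane and vacuole, gave 6 rises and 4 falls among 19 tested. Their median was 0.00 as deposited, 0.40 with median of ratios and 0.09 without the length trend. PIP2;6 had 8.8, 7.59 and 9.98 TPM in bon123 and 193, 189.6 and 204 TPM in WT under mannitol, a change of -4.33 ± 0.16. TIP2;1 fell at -2.24 ± 0.20, against -4.55 ± 0.20 in mock. PIP2;5 had 31.6, 35.9 and 36.6 TPM in bon123 and 14.1, 8.63 and 13.6 TPM in WT, a mannitol-dependent rise of 1.47 ± 0.17. The abundant PIP2;1 rose by 0.53 ± 0.09.

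Heat shock genes gave 2 rises and 6 falls among 13 tested, and 5 of the falls were mannitol-dependent. HSP17.4 had 41.3, 40.6 and 45.3 TPM in bon123 and 123.3, 153 and 163 TPM in WT under mannitol, and 63.3, 63.4 and 60.2 TPM in bon123 and 2.04, 3.07 and 5.74 TPM in WT in mock. Its order was reversed between treatments, with changes of -1.76 ± 0.23 under mannitol and 3.86 ± 0.23 in mock and an interaction of -5.61 ± 0.33. HSP22.0 and HSP21, small chaperones of the endomembrane system and the chloroplast, fell at -4.25 ± 0.23 and -3.8 ± 0.17 and were not called in mock. HSFB1 rose by 1.47 ± 0.12.

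Clock genes included 2 rises and 5 falls among 12 tested. The morning factor CCA1 had 18.7, 15.8 and 14.1 TPM in bon123 and 156, 153 and 158 TPM in WT under mannitol, a change of -3.2 ± 0.11, PRR9 changed by -2.35 ± 0.18 and PRR5 by 2.05 ± 0.18. Among 8 genes of sugar starvation and dormancy, 4 rose and 3 fell. DRM2 had 1433, 1106 and 1498 TPM in bon123 and 23.7, 41.9 and 24.1 TPM in WT, a change of 5.48 ± 0.22, and APL3, a subunit of starch synthesis, changed by -4.34 ± 0.14. Of 22 nutrient genes, 6 rose and 5 fell, with the phosphate transporter PHT1;1 at 2.98 ± 0.38 and the chloroplast glutamine synthetase GLN2 at -3.07 ± 0.09. Of 5 housekeeping references, 2 rose and none fell: UBQ10 changed by 1.1 ± 0.10 and ACT2 by 0.98 ± 0.15, while UBC9 had 148, 154 and 167 TPM in bon123 and 155, 153 and 146 TPM in WT.

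The genes with the largest falls, by log2 fold change among genes with a symbol, a mean log2(TPM + 1) of at least 2 and no overlap between genotypes, were mostly of photosynthesis. RD22, LTP4, RBCS2B, RBCS3B and RBCS1B are given above. LHB1B2 (AT2G34420), an LHCB1 copy, had 0.80, 0.31 and 4.72 TPM in bon123 and 1912, 13129.9 and 16013 TPM in WT under mannitol, with WT libraries far apart, and changed by -11.6 ± 2.48. CA1, a carbonic anhydrase, changed by -8.41 ± 0.56, and the LHCB1 copy at AT1G29910 by -8.27 ± 0.40. CAD9, a cinnamyl alcohol dehydrogenase, had 0.28, 0.97 and 0.53 TPM in bon123 and 457, 621 and 572 TPM in WT, a change of -8.44 ± 0.25. CORI3, a cystine lyase induced by jasmonate, had 0.14, 0.19 and 0.09 TPM in bon123 and 354, 434 and 299.9 TPM in WT, a change of -8.3 ± 0.20 against -5.69 ± 0.20 in mock.

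The largest rises were of other kinds. ADPG1, a polygalacturonase that loosens cell walls where cells separate, had 185, 131 and 114 TPM in bon123 and 0.12, 0.17 and 0.26 TPM in WT under mannitol, a change of 6.9 ± 0.15. FOX2, a berberine bridge enzyme-like oxidase, changed by 6.56 ± 0.27, PSK2, a phytosulfokine peptide precursor, by 6.4 ± 0.17 and the transporter UMAMIT25 by 6.07 ± 0.25. PSK2 had 291, 293 and 339 TPM in bon123 and 2.39, 3.0 and 2.61 TPM in WT under mannitol, and 1026, 969 and 955 TPM in bon123 and 2.38, 3.73 and 1.93 TPM in WT in mock. GLP9, a germin-like protein, rose by 5.75 ± 0.25 under mannitol and 4.39 ± 0.25 in mock. MT1A, a metallothionein, was listed at 28369 to 30532 TPM in bon123 and at 0 in WT under mannitol, and in mock at 15578 TPM in bon123 library 1 and 0 elsewhere. It has the near-copy MT1C, so no fold is given and its split is uncertain.

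Small nuclear RNAs stood among the rises. U4.2 had 204, 237 and 113 TPM in bon123 and 19, 0 and 0 TPM in WT under mannitol, a change of 6.03 ± 1.67, and U4atac had 98.2, 49.2 and 53.8 TPM in bon123 and was listed at 0 in all 3 WT libraries. U1.5 changed by 5.85 ± 1.86, U1.6 by 5.84 ± 1.55, U2.5 by 3.4 ± 1.1 and the small nucleolar RNA U3D by 2.91 ± 0.67. Without WT mannitol library 3, U1.5 was at 4.46 and was not called (limma, adjusted p = 0.0565). The standard errors of these short RNAs were wide.

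Beyond LEA7 and RD29B, the largest mannitol-dependent falls included GASA3, HIPP24 and OBAP2A. GASA3, a gibberellin-regulated peptide, had 2.17, 2.01 and 2.18 TPM in bon123 and 65.8, 52.6 and 74.2 TPM in WT under mannitol, and 0.35, 0.46 and 0 TPM in bon123 and 0, 0.52 and 0.13 TPM in WT in mock. It changed by -4.37 ± 0.18 under mannitol and 0.07 ± 0.18 in mock. HIPP24, a heavy metal-associated protein, had 2.1, 2.92 and 2.71 TPM in bon123 and 67.8, 74.2 and 59.3 TPM in WT under mannitol, and 7.75, 7.04 and 7.06 TPM in bon123 and 6.92, 8.2 and 7.41 TPM in WT in mock, a change of -4.25 ± 0.11 under mannitol. OBAP2A, an oil body-associated protein, changed by -4.51 ± 0.24. In these genes mock levels of the genotypes overlapped. The lack of overlap under mannitol, and of a call in that direction in mock, were conditions of their choice. Besides the small RNAs, the mannitol-dependent rises named by the same rule were DIR7 and CYP705A5. DIR7, a dirigent protein of the lignan and lignin family, had 33.6, 53 and 53 TPM in bon123 and 5.11, 6.18 and 3.65 TPM in WT under mannitol, a change of 2.98 ± 0.28. In mock DIR7 had 15.9, 14.8 and 12.8 TPM in bon123 and 12.2, 8.31 and 8.2 TPM in WT. CYP705A5, of the root thalianol pathway, had 77.1, 172 and 135 TPM in bon123 and 11.7, 31.3 and 8.82 TPM in WT under mannitol, a change of 2.95 ± 0.41. In mock CYP705A5 had 122, 108 and 77.8 TPM in bon123 and 52.6, 88.8 and 113 TPM in WT. Its WT groups of the treatments thus lie further apart than its bon123 groups.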

How the data were processed

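RNA from 9-day-old Arabidopsis seedlings was sequenced. Per the submitters' processing notes, which give no roles, the tools were HISAT2 2.1.0, RSEM 1.3.1 and DESeq2 1.24.0 with the build TAIR10. The authors deposited 1 table of TPM with a transcript length column. TPM keeps no depth, so depth is unknown, and libraries of a group supply the only measure of precision. No 2 libraries correlated above 0.989, and none was counted as a duplicate. The labels do not say that replicates were separate cultures, so the spread behind each p-value may be technical.

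Values were taken as log2(TPM + 1), which understates changes of low genes. Limma 3.58.1 (R 4.3.3) was fitted with trend to 6 group means over 18 libraries, without a replicate block, with two-sided moderated tests and Benjamini-Hochberg adjustment over 21727 genes. Contrasts were bon123 minus WT under mannitol, the same in mock, and their difference, the interaction. The fit was repeated on values scaled by median of ratios and on values freed of their trend with length, and with the alternatives of the closing section. It was also run on data simulated without a length trend or a shift in scaling, so that run gives no check of either. Lists were described by counts and medians. Promoters were read from the RefSeq genome TAIR10.1 with Python 3.11.15.

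Named genes were the BONZAI genes and partners, the 10 largest rises and falls, the 6 largest of each class, and up to 4 called members a list. Other genes named were chosen after their values were seen. The comparison, the lists and the rules were chosen with earlier results of these data known. Of 563 list members written, 5 whose symbol did not match the locus were left out.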

Additional observations from a re-analysis of the deposited data

Results flagged for a closer look

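For 21 named genes the genotype difference under mannitol departed from that in mock by limma's interaction test (adjusted p under 0.05) in all 3 scalings, which is why they are listed here. BON1 (-1.17) and BAP1 (-0.86) were called as deposited but not in all scalings. All values are log2, the difference under mannitol minus that in mock. The part of organ makeup in them was not tested.

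Among the genes covered here, the most negative were LEA7 (-7.05 ± 0.84) and LTP4 (-6.8 ± 0.64). They were followed by RD29B (-5.46 ± 0.87), HSP22.0 (-4.63 ± 0.33), GASA3 (-4.44 ± 0.26), HIPP24 (-4.21 ± 0.16) and OBAP2A (-4.11 ± 0.35). RD22 (-2.92 ± 0.50) and CORI3 (-2.61 ± 0.28) were lower in bon123 in both treatments and more so under mannitol. BON2 was at -1.48 ± 0.33. PSK2 (-1.7 ± 0.24) and BIR1 (-1.37 ± 0.26) were higher in bon123 in both treatments and less so under mannitol.

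On the positive side, ADPG1 (0.90 ± 0.21), FOX2 (0.92 ± 0.38) and GLP9 (1.36 ± 0.35) were higher in both treatments and more so under mannitol. DIR7 (2.42 ± 0.39), CYP705A5 (2.63 ± 0.58) and the RNAs U3D (2.59 ± 0.95), U2.5 (4.64 ± 1.55), U4.2 (6.58 ± 2.37) and U4atac (7.61 ± 1.18) were higher under mannitol and not called in mock. U4atac was listed at 0 in all WT mannitol libraries and ADPG1 in all WT mock libraries, so their fitted values depend on the pseudocount.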

How the results depend on the processing

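The counts as deposited kept their side within 1.5 times under a pseudocount of 0.1, no filter on low values, only the groups compared and ribosomal and organelle RNA left out. Scaling mattered most. With median-of-ratios scaling the interaction was higher for 6636 and lower for 6107 genes, with 2444 higher and 2557 lower mannitol-dependent genes. With upper-quartile scaling these were 6779, 6086, 2460 and 2560, and with the length trend removed the interaction was higher for 6423 genes, with 2073 and 2399 mannitol-dependent genes. With a mean TPM of at least 5, 4779 genes were lower in mock, 3743 lower genes were present in mock, and 168 higher and 237 lower genes were undecided. At an adjusted p under 0.01, 788 lower genes were undecided. The cause was not tested beyond the construction of each setting.

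Leaving out 1 library at a time gave 4945 to 5800 higher and 9961 to 11235 lower genes under mannitol, 8107 to 9369 and 6860 to 7651 in mock, and 3326 to 3958 and 9259 to 10538 for the interaction. Mannitol-dependent genes numbered 782 to 1093 and 4133 to 4924, genes present in mock 3892 to 4445 and 5356 to 5960, and undecided genes 262 to 427 and 351 to 659. Deviations from the group mean correlated at -0.05 to 0.18 between libraries with the same replicate number, and at -0.25 to 0.13 between different numbers. Between WT mannitol and WT mock the same-number values were 0.15, 0.18 and -0.05. With 3 libraries a group, these values cannot tell whether the numbers pair the libraries. With a replicate block the counts were 5488 and 10638 under mannitol, 8700 and 7285 in mock, and 3645 and 9777 for the interaction.

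Alternatives for single genes were counted for the BONZAI genes and partners, the largest rises and falls and the largest of each class. Of these values, 778 kept their side of the threshold, 14 lost the call and none reversed. The 14 were BIR1 in 12 settings, U1.5 without WT mannitol library 3 and U2.5 with a pseudocount of 0.1 (3.56, limma, adjusted p = 0.0956). The number of libraries and the unknown depth limit what can be detected for low genes.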

Other observations

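Transcripts of the organelle genomes moved differently in the treatments. Of 70 chloroplast-encoded genes tested, 9 rose and 19 fell in bon123 under mannitol, and none rose and 56 fell in mock. The median log2 fold change was -0.58 under mannitol and -1.66 in mock, and the interaction was positive for 43 genes in all 3 scalings. Of 51 mitochondrion-encoded genes, 30 rose and 2 fell under mannitol, and 23 rose and none fell in mock. These groups, and the small RNAs that follow, were chosen after their values were seen.

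Of 22 small nuclear RNAs tested, 15 rose and 1 fell in bon123 under mannitol, with a median of 3.18, and in mock 1 was called higher as deposited and none in all 3 scalings. Of 27 small nucleolar RNAs, 9 rose and 1 fell under mannitol, and none rose and 5 fell in mock. Their transcripts are short, with median lengths of 170 and 151 bases. Ribosomal RNA was also higher in the bon123 mannitol libraries than in the WT mannitol libraries. The part of RNA selection or quality in these values was not tested.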
